A study of Mus musculus with 24 samples.

Results

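The comparison described here is between right ventricles 1 month after PSPI surgery and sham-operated right ventricles, restricted to arrays on which Myh7 was low. Its members are 9 of the 24 arrays of the series: the PSPI month 1 samples 2, 3 and 4 (n = 3) and the sham samples 1, 2, 3, 4, 5 and 10 (n = 6). They were chosen from the measured signal of Myh7, so Myh7 and the other genes of the fetal program are described below without a test. An array counted as low when the log2 signal of its brightest Myh7 probe, minus the 75th percentile of the array's detected probes, lay below 3.5. Every level below is on this log2 scale, where 0 is the array's 75th percentile, and every difference is month 1 minus sham on the same scale, where 1 is a doubling. The comparison asks which expression differences were present without the fetal gene program.

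PSPI is a surgery that loads the mouse right ventricle with both pressure and volume. RNA from whole right ventricle was hybridised to 1-colour Agilent arrays, 1 sample per array, for 10 sham, 5 month 1, 5 month 2 and 4 month 3 samples. The strain label of all samples is "M/FVB/10-12", both groups carry no other agent or allele in the labels, and the sham labels give no time after surgery. The labels do not say that samples of a group were separate animals, so a p-value here is set against sample-to-sample spread that could be technical only.

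Adult mouse ventricle makes its thick filaments mainly from the alpha myosin heavy chain, encoded by Myh6. Under load, cardiomyocytes can return to a fetal pattern with the beta chain (Myh7), natriuretic peptides (Nppa, Nppb) and skeletal alpha-actin (Acta1). A loaded ventricle also contains fibroblasts, vessel cells and leukocytes, whose genes can change independently of that program. In bulk RNA, more cells of a type and more RNA per cell cannot be told apart.

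The 3 PSPI arrays share 1 slide (slide 2), which holds no sham array of the series. Of the 6 sham arrays, Sham 1, 2, 3 and 4 are on slide 1 and Sham 5 and 10 on slide 3. Within the 9 arrays, slide and surgery therefore cannot be told apart, and values that bear on the slide are given beside the results. Between 36.2% and 46.6% of probes were well above background on these arrays, and their small number limits the precision. Sham 3 and Sham 4 lay closer together than any other pair of arrays (a distance of 0.181, against 0.251 for the next pair, PSPI month 1 samples 3 and 4). They were counted as 1 sample, which left 3 PSPI and 5 sham samples for the test. Ventricular cardiomyocyte genes (Myh6, Myl2, Tnnt2, Tnni3 and Actc1) were well above background on all 9 arrays.

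Myh7 stood at 2.49, 2.52 and 2.03 on the 3 PSPI arrays. On the 6 sham arrays its lowest, median and highest levels were 1.62, 1.93 and 2.16, so PSPI sample 4 lay within the sham range. The highest level inside the limit was 2.52 and the lowest outside it was 4.67, with no array between them. The other 15 arrays reached 5.91 at the highest. Myh6 was abundant in both groups, at 5.67, 6.75 and 6.31 on the PSPI arrays against 5.03, 5.81 and 6.71 (lowest, median and highest) on the sham arrays.

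**Figure D1:**
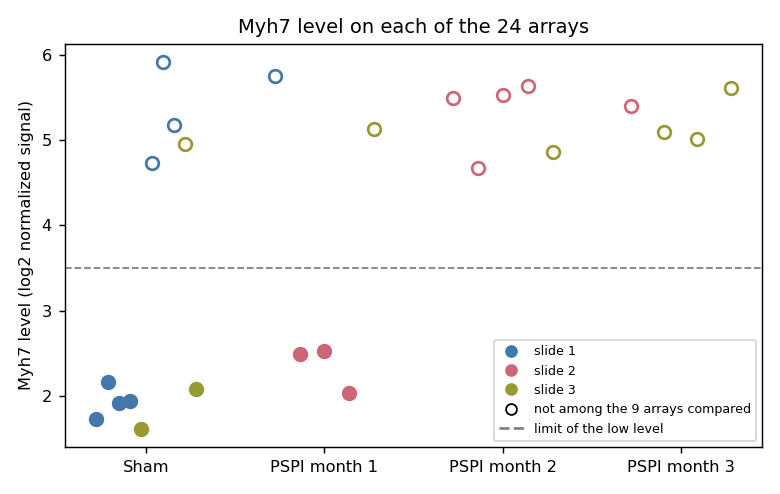
Myh7 level (log2 normalized signal) on each of the 24 arrays by group, 1 point per array, coloured by slide, with the low-level limit of 3.5 as a dashed line. The 9 filled points are the arrays compared, between 1.62 and 2.52, and the open points lie between 4.67 and 5.91.

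The other fetal genes showed no common shift. Nppa, the atrial natriuretic peptide, was at 5.36, 3.47 and 0.61 on the PSPI arrays and ran from -1.12 through a median of 3.35 to 6.24 on the sham arrays. Nppb was at 1.61, 0.24 and -1.49 against -0.11, 0.99 and 1.93. Both genes split the sham arrays in the way described below for atrial markers. Nppa differed by 2.87 against Sham 1, 2 and 5 and by -2.77 against Sham 3, 4 and 10, and Nppb by 0.08 and -1.70. Their differences therefore depend on which sham arrays are used. Acta1 was at 0.32, 0.38 and 0.76 against -0.04, 0.74 and 1.02. Ankrd1, a stretch-responsive sarcomere protein, was at 3.05, 2.56 and 1.91 against 2.39, 2.79 and 3.23. Over all 6 sham arrays the PSPI and sham ranges overlapped for all of these genes. The median difference of the 14 measured genes of the hypertrophy and fetal list was 0.05. The exception among the 14 was Acta2, smooth muscle alpha-actin, at 3.00, 3.13 and 2.74 against 2.08, 2.13 and 2.60, where the groups did not overlap. Other smooth muscle genes did not follow it. Of 15 measured smooth muscle and pericyte markers 5 had a positive difference, and the median was -0.07. Myh11 ran from -4.65 to -4.40 on the PSPI arrays and from -4.47 to -3.21 on the sham arrays, and the ranges of Tagln overlapped.

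Across 12078 genes, limma's moderated test with Benjamini-Hochberg adjustment called 83 genes at an adjusted p under 0.05, or 0.687% of those tested. Of these, 56 were higher at month 1 (0.464%) and 27 lower (0.224%), and 2237 genes had an unadjusted p under 0.05. None of the 83 overlapped between the groups. Without regard to the test, 782 genes (6.47%) had every PSPI array above every sham array and 827 (6.85%) every PSPI array below. The differences were moderate: the median was 0.69 for the 56 higher genes and -0.64 for the 27 lower genes, and 11 genes reached 1 in either direction.

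How many genes passed depended on single libraries. Without PSPI sample 2, 3 or 4, Sham 5 or Sham 10, only Med25 passed in each case. The count was 3 without Sham 1, 24 without Sham 2, 37 without Sham 4 and 89 without Sham 3. When Sham 1 and 5 were averaged, and Sham 3, 4 and 10 likewise, limma called 0 genes (1907 at an unadjusted p under 0.05).

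With all 24 arrays in the fit and slide as a fixed block, limma again called 0 genes (543 at an unadjusted p under 0.05). That fit includes the arrays from which the 83 genes were called, so a kept direction is no independent check. No share of all genes keeping their direction is given to set beside it. The level of slide 2 is tied to the other slides only by month 2 and month 3 arrays. In that fit 82 of the 83 genes kept their direction and 47 had an unadjusted p under 0.05. The exception was Plekhb2, whose difference went from 0.82 ± 0.12 (SE) to -0.01. The medians with the block were 0.50 for the 56 and -0.61 for the 27. Month 2 sample 1 is on slide 2 and month 2 sample 5 on slide 3. Of the 56 higher genes, 41 (73.2%) were also higher on the first of these month 2 arrays than on the other, against 42.9% of all genes. Of the 27 lower genes, 22 (81.5%) were lower on it, against 57.1% of all genes. The median size of these month 2 differences was 0.15 and -0.19, and the part of the slide in the month 1 result was not tested.

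The 15 genes with the largest differences in each direction covered several functions. Among the higher ones were 3 genes on chromosome 7 (Ptov1, Med25 and Emc10) and genes that leukocytes express (Il18r1, H2-Aa, Itgb7, Jaml, Map4k1 and Prkcq). Lipid genes (Acot5 and Lipe) and a clock repressor (Nr1d1) were also among them. Among the lower ones were a collagen chaperone (Serpinh1), a small heat shock protein (Hspb3) and an integrin subunit (Itga10).

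**Figure D2:**
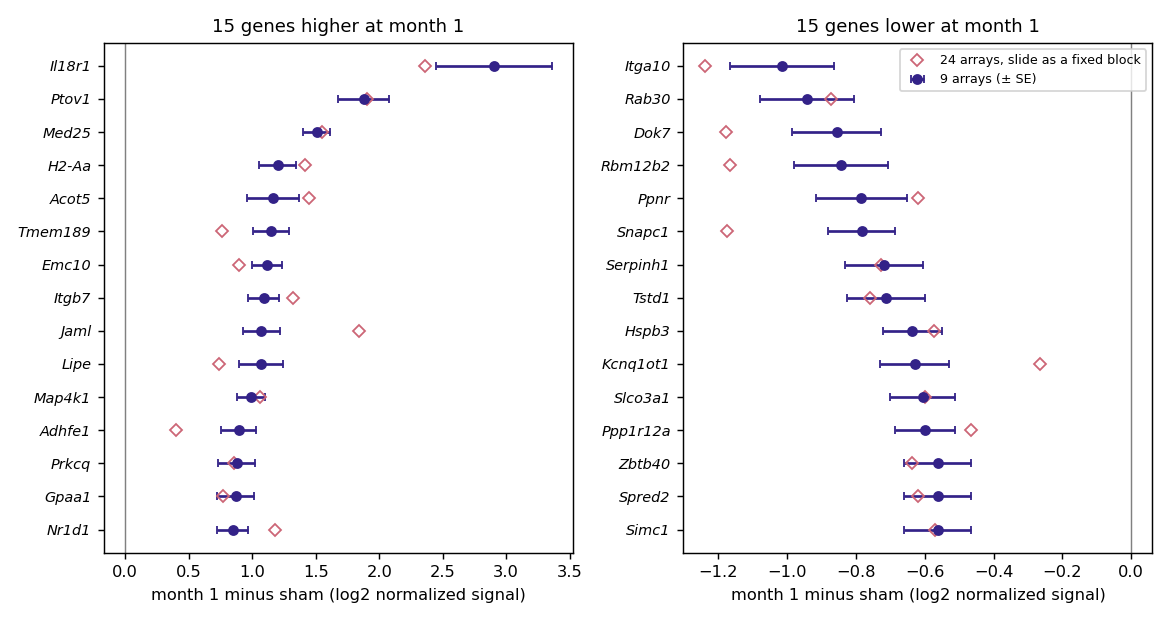
Month 1 minus sham (log2 normalized signal) for the 15 genes with the largest called differences in each direction, filled points with ± SE from 3 PSPI and 5 sham samples, and open diamonds for the fit over 24 arrays with slide as a fixed block. All 30 diamonds lie on the same side of 0 as their points. The fit over 24 arrays includes the arrays behind the points, so the shared side is no independent check. Kcnq1ot1 moved from -0.63 to -0.27 and Jaml from 1.07 to 1.84. The points of Il18r1 and Itga10 rest on signal not above background in 1 group.

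Med25 gave the smallest p-value of all genes. It encodes a subunit of the Mediator complex, which links transcription factors to RNA polymerase II. Its probe lies at chr7:52136400-52136459 (mm9). Levels were -0.23, -0.21 and -0.23 on the PSPI arrays, and -1.93, -1.78 and -1.49 (lowest, median and highest) on the sham arrays. The groups were far apart and the 3 PSPI values almost equal: the means were -0.22 ± 0.01 (SD, n = 3) and -1.73 ± 0.17 (SD, n = 5). The difference was 1.51 ± 0.11 (SE, adjusted p = 0.00264 by limma), or 2.84-fold. With slide as a fixed block it was 1.55 ± 0.27, with an adjusted p of 0.144.

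Ptov1 has its probe at chr7:52119766-52119825. It was at 0.86, 0.72 and 0.58 on the PSPI arrays, against -1.49, -1.18 and -0.55 on the sham arrays. The difference was 1.88 ± 0.20 (adjusted p = 0.0232 by limma), or 3.67-fold, and 1.91 ± 0.34 with the slide block. Emc10, a subunit of the endoplasmic reticulum membrane protein complex, has its probe at chr7:51747326-51747385. It was at -3.59, -3.46 and -3.33 against -4.82, -4.57 and -4.36, a difference of 1.11 ± 0.12 (adjusted p = 0.0232 by limma). All 3 genes were higher on each PSPI array than on any sham array of the 9.

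Fuz and Akt1s1, which lie close to Med25 and Ptov1 and were picked after their values were seen, did not pass the test. Fuz differed by 0.13 and Akt1s1 by 0.20. Of the 83 called genes, 12 (14.5%) lay on chromosome 7, which holds 7.87% of the genes tested.

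The same genes were measured on the arrays outside the comparison, which belong to other groups or to the high Myh7 level. Med25 ran from -0.95 to -0.43 on the 5 month 2 arrays, including -0.71 on the month 2 array of slide 3. It ran from -2.73 to -1.84 on the month 3 arrays, including -2.18 on the month 3 array of slide 2. Sham 6 to 9 lay between -2.39 and -1.91, and month 1 samples 1 and 5, where Myh7 was high, were at -1.88 and -2.06. Ptov1 showed the same order, with -0.11 to 0.45 at month 2, -2.59 to -1.57 at month 3 and -1.80 to -1.48 on Sham 6 to 9. Emc10 was at -3.73 to -3.11 at month 2 and -4.14 to -3.79 at month 3.

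**Figure D3:**
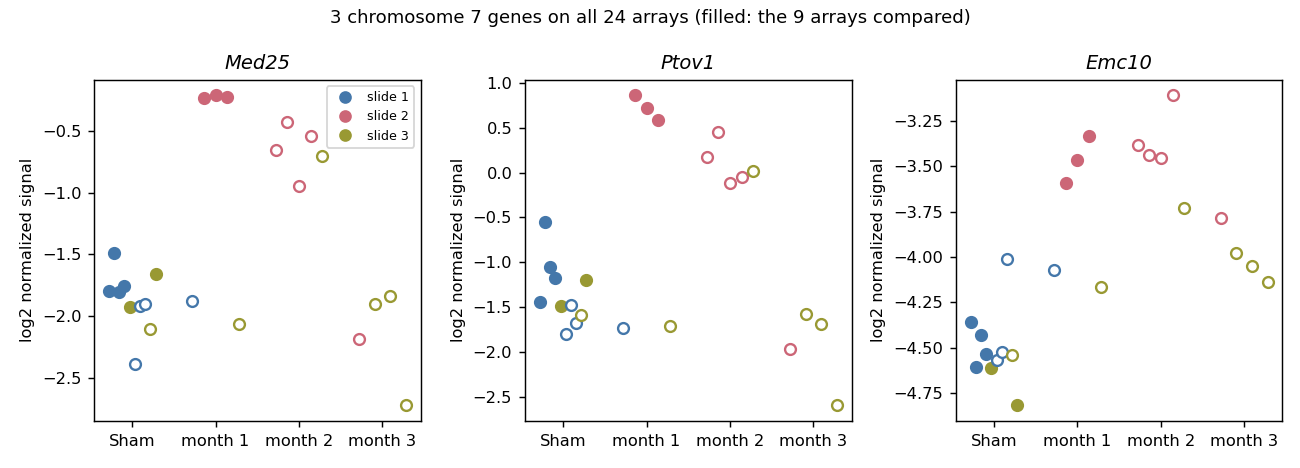
Levels (log2 normalized signal) of Med25, Ptov1 and Emc10 on all 24 arrays by group, 1 point per array, coloured by slide and filled for the 9 arrays compared. The 3 filled month 1 points lie above every sham point for all 3 genes, and for Med25 and Ptov1 every month 2 point lies above every sham point and every month 3 point.

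MHC class II genes were the list with the most genes called in 1 direction. MHC class II molecules present peptides from ingested proteins to CD4 T cells and are carried mainly by macrophages, dendritic cells and B cells. Of 9 listed genes 7 were measured: 2 passed the test, both higher (background 0.464%), 5 did not overlap between the groups (background 6.47%), and the median difference was 0.84 against -0.01 over all genes. The median was 0.67 against Sham 1, 2 and 5, 0.80 against Sham 3, 4 and 10, and 1.20 with slide as a fixed block. On the arrays with high Myh7, where month 1 and sham share slides, it was 0.10.

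The promoters of 3 of these genes are shown because they share a short box just upstream of the start. Each is the 100 bases before the annotated start (RefSeq, GRCm38.p6), printed 5′ to 3′ along the gene's strand, with the letters TGATTGG in capitals.
H2-Aa, chr17:34287824-34287923, minus strand: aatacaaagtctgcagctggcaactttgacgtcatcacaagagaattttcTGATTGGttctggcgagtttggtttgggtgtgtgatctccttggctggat
H2-Eb1, chr17:34305767-34305866, plus strand: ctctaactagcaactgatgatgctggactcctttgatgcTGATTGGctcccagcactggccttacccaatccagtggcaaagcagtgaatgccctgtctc
H2-DMb1, chr17:34153091-34153190, plus strand: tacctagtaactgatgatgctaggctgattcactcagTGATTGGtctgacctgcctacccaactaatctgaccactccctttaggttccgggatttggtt
The box begins 50, 61 and 63 bases before the start in this order and holds the inverted CCAAT core, a known element of class II promoters. Of the 7 measured genes 5 had a promoter entry, and 3 of them held the letters on either strand. Of 32851 mouse promoter windows of the same length, 4.58% held them. The letters were chosen after the sequences were read, and a match is a description of the sequence. The bases are those of the reference assembly and were not determined in these samples, whose strain label names FVB.

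H2-Aa, the class II A alpha chain, was at -0.86, -1.45 and -1.36 on the PSPI arrays and -2.57, -2.45 and -2.23 on the sham arrays. Every PSPI array was higher, by 1.20 ± 0.14 on average (adjusted p = 0.0258 by limma), or 2.30-fold. H2-DMb1, a chain of the H2-DM chaperone that loads peptides, was at -2.16, -2.32 and -2.37 against -2.98, -2.93 and -2.76. Its difference was 0.62 ± 0.09 (adjusted p = 0.0387), and the groups did not overlap.

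The partner chains had similar values but missed the threshold in limma. H2-Ab1, the A beta chain, was at 1.28, 0.66 and 0.62 against -0.23, -0.14 and 0.33, a difference of 0.89 ± 0.18 (adjusted p = 0.0674). Cd74, the invariant chain, was at -0.03, -0.49 and -0.55 against -1.51, -1.29 and -0.83, a difference of 0.84 ± 0.18 (adjusted p = 0.0676). H2-DMa, the other H2-DM chain, differed by 0.90 ± 0.21 (adjusted p = 0.0821). None of these overlapped between the groups, and PSPI sample 2 had the highest level of each.

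H2-Eb1, the E beta chain, carries the box but its ranges overlapped, with a difference of 0.35 ± 0.21 (adjusted p = 0.421 by limma). Ctss, the protease that trims the invariant chain, differed by 0.13 ± 0.24 (adjusted p = 0.82), and its ranges also overlapped. High H2-Aa was also found on a sham array outside the comparison, since Sham 6 to 9 ran from -2.34 to -1.35.

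**Figure D4:**
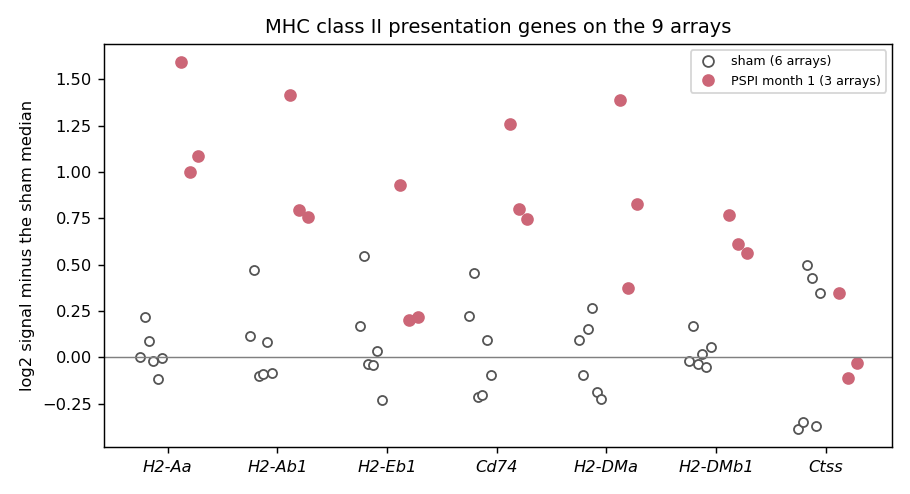
Levels of 7 MHC class II presentation genes (log2 signal minus the gene's median over the 6 sham arrays), with open points for sham and filled points for PSPI month 1 arrays. The filled points lie above all open points for H2-Aa, H2-Ab1, Cd74, H2-DMa and H2-DMb1 and overlap them for H2-Eb1 and Ctss.

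Further called genes include some that leukocytes express. They were picked from the 83 after their values were seen, and none of the measured macrophage, neutrophil, T and NK cell or B cell markers was called. Ptprc, the pan-leukocyte phosphatase CD45, was at -4.34, -4.01 and -3.95 on the PSPI arrays against -4.80, -4.71 and -4.56, a difference of 0.61 ± 0.11 (adjusted p = 0.0495 by limma). Itgb7, the beta-7 integrin chain of lymphocytes, was at -4.50, -4.13 and -4.48 against -5.64, -5.49 and -5.25, a difference of 1.09 ± 0.12 (adjusted p = 0.0232). Every PSPI array lay above every sham array for both.

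Jaml, a leukocyte adhesion molecule, was higher by 1.07 ± 0.14 and Map4k1, a kinase of blood cells, by 0.99 ± 0.11. Selplg, the selectin ligand of leukocytes, was higher by 0.68 ± 0.11 and Rac2, their small GTPase, by 0.57 ± 0.10. Prkcq, the T cell protein kinase C theta that muscle also expresses, was higher by 0.88 ± 0.15, and Nfkb2 by 0.61 ± 0.10. The adjusted p-values of these 6 genes in limma ran from 0.0232 to 0.0495. Map4k1 was well above background on 2 of the 6 sham arrays and Jaml on 5, against all 3 PSPI arrays, so both entered the test through the PSPI arrays and their sizes are less certain. A second Selplg probe differed by 0.19 with overlapping ranges.

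Il18r1, a chain of the interleukin-18 receptor, was detected on the PSPI arrays only. It was at -4.82, -5.17 and -4.67 on the PSPI arrays and well above background on none of the 6 sham arrays, where the signal ran from -9.05 through -7.72 to -6.38. Month 1 was therefore at least 2.47-fold higher, where the sham side is set at the lowest detected signal of each array or its own signal if higher. The adjusted p of 0.0403 by limma belongs to the fitted difference, which uses sham signal not above background, and not to this bound. Its probe lies at chr1:40557541-40557600 (mm9), and it entered the test only through the PSPI arrays, as Itga10 below did only through the sham arrays.

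The levels of cell type markers did not all move with these genes. The summed level of 19 macrophage and monocyte markers was 3.82 to 3.91 on the PSPI arrays and 3.59 to 3.93 on the sham arrays, and none of the 19 passed. Of these, 3 (C1qa, Mpeg1 and Lyz2) had every PSPI array above every sham array (background 6.47%), and the median was 0.23. That median was 0.41 against Sham 1, 2 and 5 and 0.01 against Sham 3, 4 and 10. Of 6 measured T and NK cell markers none passed, with summed levels of -0.80 to -0.41 against -1.09 to -0.07. Cd3g of T cells, Cd79a of B cells and Itgax of dendritic cells were not well above background on any of the 9 arrays. Cd3e was so on all 9, Cd3d on 2 of the 3 PSPI and 0 of the 6 sham arrays, and Cd79b on 2 PSPI and 4 sham arrays. The part of leukocyte content in these differences was not tested.

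Inflammatory genes outside the called set had wide spreads. S100a8, a calprotectin subunit of neutrophils, was at -4.68, -3.13 and -4.30 on the PSPI arrays. It lay between -5.94 and -5.58 on Sham 1, 2 and 5 and between -7.92 and -7.21 on Sham 3, 4 and 10, so it was low on all 6, and well above background on 2 of them. The gene entered the test through the PSPI arrays, so its fitted difference of 2.41 ± 0.55 (adjusted p = 0.079 by limma) rests partly on sham signal not above background. Of 5 measured neutrophil markers it was the 1 without overlap (background 6.47%). Their summed level was 2.41 to 3.25 on the PSPI arrays and 2.59 to 3.22 on the sham arrays. S100a9, Lcn2, Elane and Csf3r overlapped, with differences of 2.60, 0.44, 0.07 and -0.02, and S100a9 also entered through the PSPI arrays. Ccl8, a monocyte chemokine, was at -1.97, -1.30 and -0.75 against -3.92, -2.90 and -2.76, a difference of 1.75 ± 0.32 that just missed the threshold (adjusted p = 0.0534). The groups did not overlap for S100a8 or Ccl8. Of 16 measured chemokine and acute phase genes none passed and 2, Ccl8 and Ccl9, did not overlap (background 6.47%). Their median was 0.35 and 14 of the 16 differences were positive. Among them Ccl2 differed by 0.13 and Ccl7 by 0.02, while Ccl12 differed by -0.27, each with overlapping ranges.

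Of 16 measured complement genes none passed the test in limma and 5 did not overlap, all higher at month 1 (background 6.47%), with a median of 0.41. The complement median was 0.67 against Sham 1, 2 and 5 and 0.19 against Sham 3, 4 and 10. Cfb, a protease of the alternative pathway, differed by 1.41 ± 0.37 (adjusted p = 0.103) and C3, the central component, by 0.87 ± 0.24 (adjusted p = 0.112). Of 15 MHC class I presentation genes none passed, 4 had every PSPI array higher (background 6.47%) and 1 lower (background 6.85%), and the median was 0.21. Psmb8, an immunoproteasome subunit, differed by 0.44 ± 0.08 (adjusted p = 0.0607). Of 30 interferon response genes none passed, and 3 lay higher (background 6.47%) and 4 lower (background 6.85%) without overlap. Among them Oasl2 differed by 0.79 ± 0.16 (adjusted p = 0.0652) and Oas2 by -0.54 ± 0.13 (adjusted p = 0.0836), in opposite directions.

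Metabolic genes were represented by a few single members. Lipe, hormone-sensitive lipase, was at -3.27, -3.46 and -3.93 on the PSPI arrays against -4.83, -4.66 and -4.30, a difference of 1.07 ± 0.17 (adjusted p = 0.042 by limma). Acot5, a peroxisomal acyl-CoA thioesterase, was at -4.94, -4.83 and -4.47 against -6.34, -5.99 and -5.41, a difference of 1.16 ± 0.20 (adjusted p = 0.0495). Neither overlapped between the groups, but Acot5 was well above background on 5 of the 6 sham arrays and entered the test through the PSPI arrays. Adhfe1, a mitochondrial hydroxyacid-oxoacid transhydrogenase, was higher by 0.89 ± 0.13 (adjusted p = 0.0387). Of the larger pathways, none of 29 fatty acid genes passed (median 0.08), nor of 31 respiratory chain genes (median 0.09) or 16 PPAR-responsive genes (median 0.29).

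Lipe was the only called gene among 9 measured adipocyte markers, whose median was -0.01. The summed adipocyte level was 4.51 to 4.72 on the PSPI arrays and 4.60 to 4.74 on the sham arrays. Adipoq, Plin1 and Cidec were each well above background on 2 of the 3 PSPI arrays and on 4 or 5 of the 6 sham arrays. These probes therefore entered neither the test nor the sum, and their levels varied widely within both groups. Adipoq was at -2.79, -4.10 and -6.72 on the PSPI arrays and ran from -6.82 to -2.35 on the sham arrays.

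Among 27 genes of calcium handling and ion channels, 1 passed. Jph2, which holds the sarcoplasmic reticulum to the T-tubules, was at -1.77, -1.58 and -1.60 against -2.58, -2.46 and -2.23, a difference of 0.77 ± 0.10 (adjusted p = 0.0323 by limma). Every PSPI array was higher. Kcnip2, the subunit that sets the transient outward potassium current, differed by 0.92 ± 0.18 without overlap but did not pass (adjusted p = 0.0607).

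Nr1d1, the clock repressor REV-ERB alpha, was at -1.31, -1.32 and -1.73 on the PSPI arrays and -2.45, -2.31 and -2.16 on the sham arrays. It was higher on all 3 PSPI arrays, by 0.85 ± 0.12 (adjusted p = 0.0382 by limma). It was the 1 called gene of 15 measured clock genes, whose median was -0.03. Dbp, a clock output gene, differed by 0.61 ± 0.18 (adjusted p = 0.14), with overlapping ranges. The time of day of sampling is not in the labels.

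Matrix genes were mixed. Of 24 collagen and structural matrix genes, Col6a2, a chain of the microfibrillar collagen VI, passed. It was at -1.68, -1.62 and -1.49 against -2.21, -2.14 and -2.00, a difference of 0.51 ± 0.09 (adjusted p = 0.0495 by limma). The list's median was 0.13, but 0.37 against Sham 1, 2 and 5 and -0.16 against Sham 3, 4 and 10. Col1a1 differed by 0.18 ± 0.21 and Col3a1 by 0.34 ± 0.28, and the ranges of both fibrillar collagens overlapped.

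Of 24 matrix remodelling genes, 1 passed in each direction. Mmp14, a membrane-bound collagenase, was at -4.76, -4.70 and -4.64 against -5.43, -5.22 and -5.13, higher by 0.57 ± 0.10 (adjusted p = 0.0484 by limma). Serpinh1, the chaperone HSP47 needed to fold procollagen, was at 0.59, 0.37 and 0.82 against 1.11, 1.33 and 1.45, a difference of -0.72 ± 0.11 (adjusted p = 0.0405). The groups did not overlap for either. Sfrp1, a secreted Wnt antagonist, was the 1 called gene of 13 Wnt genes, at -4.34, -4.28 and -4.16 against -5.07, -4.95 and -4.75. Its difference was 0.70 ± 0.09 (adjusted p = 0.0323), and on the arrays with high Myh7 it was 0.58 ± 0.12.

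Among the 27 lower genes, Itga10, a collagen-binding integrin alpha chain, was detected on the sham arrays only. It was well above background on all 6 sham arrays, at -5.18, -4.82 and -4.57 (lowest, median and highest), and on none of the PSPI arrays (-6.16, -5.76 and -5.85). Month 1 was at least 2.01-fold lower. The adjusted p of 0.0387 by limma belongs to the fitted difference, which uses PSPI signal not above background, and not to this bound. Its probe lies at chr3:96468377-96468436 (mm9).

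Hspb3, a small heat shock protein of muscle, was at -1.77, -1.86 and -1.88 on the PSPI arrays against -1.34, -1.17 and -1.09, and fell by 0.64 ± 0.09 (adjusted p = 0.0323 by limma). Dok7, the activator of the muscle kinase MuSK, was at -3.58, -3.70 and -3.33 against -2.89, -2.71 and -2.48, and fell by 0.86 ± 0.13 (adjusted p = 0.0387). Rab30, a Golgi GTPase, was at -4.14, -4.59 and -4.22 against -3.62, -3.34 and -3.18, and fell by 0.94 ± 0.14 (adjusted p = 0.0387). Every PSPI array lay below every sham array for these 3 genes.

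Of the lower genes named next, Ppp1r12a and Slco3a1 were the brightest and had tight values. Ppp1r12a, the targeting subunit of myosin phosphatase, was at 0.43, 0.46 and 0.30 against 0.86, 1.04 and 1.15, and fell by 0.60 ± 0.09 (adjusted p = 0.0387 by limma). Slco3a1, an organic anion transporter, was at 0.35, 0.31 and 0.39 against 0.74, 1.00 and 1.14, and fell by 0.61 ± 0.09 (adjusted p = 0.0403). The groups did not overlap on these probes, but a second probe of each gene gave a smaller difference with overlapping ranges, -0.23 for Ppp1r12a and -0.24 for Slco3a1. Snapc1, a subunit of the snRNA promoter-binding complex, fell by 0.78 ± 0.10 (adjusted p = 0.0272). Kcnq1ot1, the long antisense RNA of the imprinted Kcnq1 region, fell by 0.63 ± 0.10 (adjusted p = 0.0407), and its probe may not separate it from the overlapping gene. Rbm12b2, which fell by 0.84 ± 0.14 (adjusted p = 0.042), has near-identical copies, and a second probe differed by 0.05 with overlap, so its call is uncertain. Spred2, an inhibitor of Ras signalling, fell by 0.56 ± 0.10 (adjusted p = 0.0495).

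Endoplasmic reticulum stress genes and some heat shock genes lay on the low side without passing the test in limma. Of 25 endoplasmic reticulum stress genes none was called, 6 had every PSPI array below every sham array (background 6.85%), and the median was -0.20. Creld2, a secreted stress-induced protein, was at -0.20, -0.19 and -0.16 against 0.15, 0.23 and 0.36, a difference of -0.43 ± 0.08 (adjusted p = 0.0514). Atf4, a transcription factor of that response and 1 of the 6, differed by -0.36 ± 0.09 (adjusted p = 0.0958) on its brighter probe, but a dimmer probe differed by 0.35 with every PSPI array above the sham arrays, so its direction is uncertain. Xbp1 differed by -0.35 ± 0.09 (adjusted p = 0.104). Of 18 heat shock genes 4 lay lower without overlap (background 6.85%) and the median was -0.07. That median was -0.16 against Sham 1, 2 and 5 and 0.05 against Sham 3, 4 and 10. Dnaja1, an HSP40 co-chaperone, differed by -0.67 ± 0.14 (adjusted p = 0.0696) and Hsp90aa1, the inducible HSP90, by -0.42 ± 0.09 (adjusted p = 0.0691).

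Endothelial markers were slightly lower in sum. Their summed level was 5.41 to 5.54 on the PSPI arrays and 5.62 to 5.77 on the sham arrays. Of 21 genes none passed the test and 3 lay lower without overlap (background 6.85%), with a median of -0.12. Egfl7, an endothelial secreted factor, differed by -0.44 ± 0.11 (adjusted p = 0.098 by limma) and Icam2 by -0.39 ± 0.11 (adjusted p = 0.116). Pecam1, Cdh5 and Kdr were well above background on all 9 arrays with overlapping ranges.

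Markers of the atrium and of the heart's surface layer split the sham arrays. The summed level of 15 atrial cardiomyocyte markers was 4.02 to 4.22 on Sham 1, 2 and 5, 7.51 to 7.89 on Sham 3, 4 and 10, and 4.67 to 6.88 on the PSPI arrays. Myl7, the atrial myosin light chain, was at 2.19, -0.49 and -3.84 on the PSPI arrays, and ran from -7.75 to 3.53 on the sham arrays. The list's median difference was -0.09, made of 0.48 against Sham 1, 2 and 5 and -1.25 against Sham 3, 4 and 10. None of the 15 genes was called, and the groups overlapped for all of them.

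Of 12 measured epicardial and mesothelial markers none passed. Of these, 7 (Krt19, Krt8, Krt18, Upk1b, Upk3b, Muc16 and Lrrn4) were well above background on all 3 PSPI arrays but on only 3 to 5 of the 6 sham arrays, so they entered the test through the PSPI arrays and the size of their differences is uncertain. The summed level was 3.53 to 4.07 on the PSPI arrays, 2.22 to 2.67 on Sham 1, 2 and 5 and 3.44 to 3.48 on Sham 3, 4 and 10. Msln, mesothelin, was at -0.41, -0.35 and 0.97 on the PSPI arrays and ran from -4.35 to -0.03 on the sham arrays, with overlap. Aldh1a2 and C3 were the 2 members (background 6.47%) with every PSPI array above every sham array. The summed level thus lay higher on the PSPI arrays than on every sham array, by little against Sham 3, 4 and 10. C3, also on the complement list, was by far the brightest member. It was at 3.21, 3.70 and 3.62 on the PSPI arrays and ran from 2.05 to 3.07 on the sham arrays. The sum therefore mainly follows C3 and does not describe the dimmer members. The part of these markers in other differences was not tested.

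**Figure D5:**
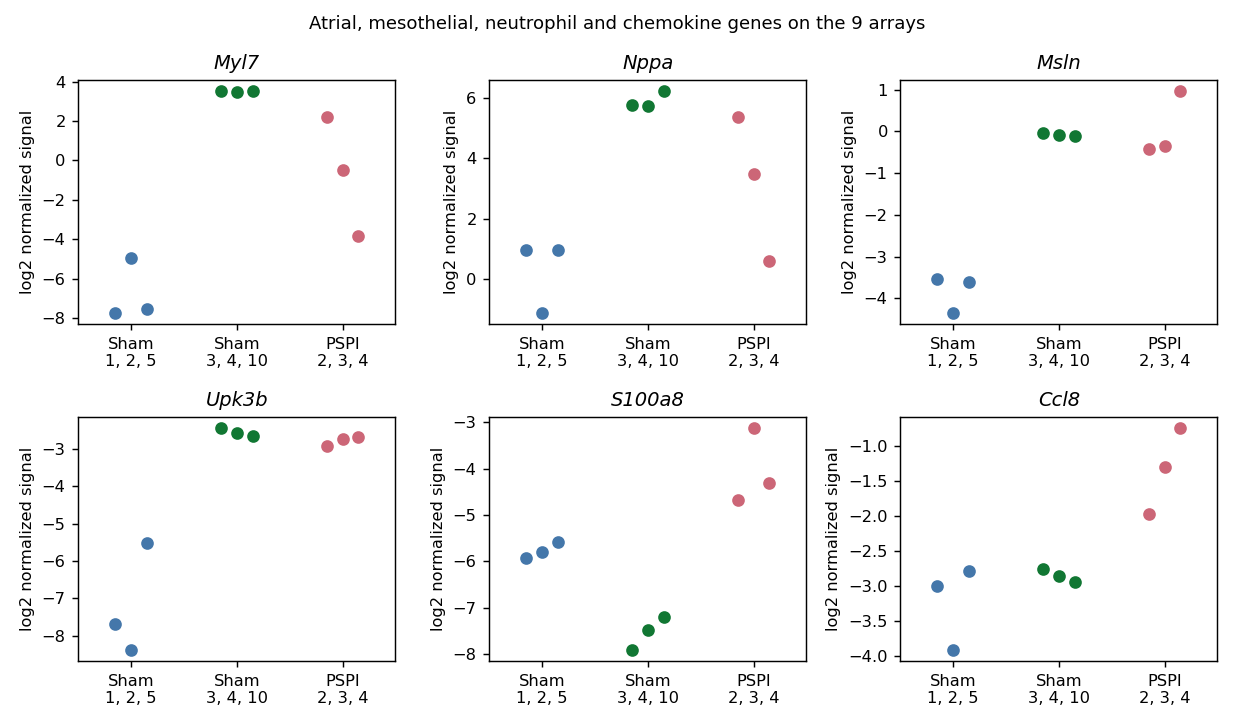
Levels (log2 normalized signal) of atrial genes (Myl7, Nppa), mesothelial genes (Msln, Upk3b), S100a8 and Ccl8 on the 9 arrays, 1 point per array, in 3 sets: Sham 1, 2 and 5, Sham 3, 4 and 10, and PSPI month 1 samples 2, 3 and 4. Msln and Upk3b are near the PSPI levels on Sham 3, 4 and 10 only, while S100a8 and Ccl8 are above both sham sets on all 3 PSPI arrays.

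Arrays with high Myh7 gave the same contrast for comparison: month 1 samples 1 and 5 against Sham 6 to 9. There limma called 0 genes (1172 at an unadjusted p under 0.05). Month 1 sample 1 shares slide 1 with Sham 6, 7 and 8, and sample 5 shares slide 3 with Sham 9, so this contrast can be read within slides. Of the 56 genes higher at the low level, 34 (60.7%) were also higher on both slides there, against 42.5% of all genes. Of the 27 lower genes, 11 (40.7%) were lower on both, against 29.3% of all genes.

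The test of the difference between the 2 contrasts called 3 genes (0.0248%, with 1232 at an unadjusted p under 0.05). Ptov1 differed by 1.97 ± 0.27 more at the low than at the high Myh7 level, where its own difference was -0.09 ± 0.21. Med25 differed by 1.40 ± 0.19 more, against 0.11 ± 0.14 at the high level. Itga10 differed in the opposite direction, with a fitted value of -1.78 ± 0.25 and a difference of 0.77 ± 0.19 at the high level. It was not well above background on the low-level PSPI arrays, so the size of its value is not a measured one. All 3 had an adjusted p of 0.0268 in limma. The slide was not separate from the level in this test, and with slide as a fixed block it called 0 genes (325 at an unadjusted p under 0.05). The count was also 0 without Sham 1, 7, 8, 9 or 10 or PSPI month 1 sample 2 or 3, it was 1 without sample 4 and 2 without sample 1, and it was 105 without sample 5.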

How the data were processed

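Scanner files from Agilent Feature Extraction 10.7.3.1 (per the submitters' processing notes) held, per the file headers, the deposited processed intensity (gProcessedSignal) of 55681 probes on mm9. A deposited value table of the same arrays was used as an alternative. Here log2 of the signal minus each array's 75th percentile over 16937 probes detected on all 24 arrays was taken. Probes well above background on all sham arrays or all PSPI arrays of the 9 were kept, which left 20245 probes and 12078 genes (1 probe per gene, the brightest). Sham 3 and 4 were averaged. The 2 groups were compared with lmFit and eBayes (limma 3.58.1, R 4.3.3) and p-values were Benjamini-Hochberg adjusted over all genes. Scripts were tested on simulated data. The fixed slide block was fitted on all 24 arrays, and the difference between Myh7 levels on the 5 month 1 and 10 sham arrays. Named genes were the 15 largest called differences in each direction with a plain symbol and no overlap, up to 4 genes per list by p, and a fixed set of heart genes; Plekhb2 and other genes of the text outside it were picked after their values were seen. Members and lists were chosen with earlier results of these data known. Alternatives covered scaling, background, filter, probes, averaging, slide, weights and leaving out each sample.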

Additional observations from a re-analysis of the deposited data

Results flagged for a closer look

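In 4 of 81 genes checked, 1 of the 5 sham samples stood apart from the others by Dixon's test, which chance does in about 1 of 20 groups. Ccl8 was at -3.92 on Sham 2, against -3.01 to -2.79 on the others. Acta2 was at 2.60 on Sham 2, against 2.10 to 2.18. Rbm12b2 was at -2.68 on Sham 5, against -2.33 to -2.23. Ppnr, a called lower gene, was at -1.27 on Sham 1, against -1.67 to -1.58.

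The difference between month 1 and sham itself differed between the low and the high Myh7 level for 3 genes by limma's test of the difference: Itga10 by -1.78, Med25 by 1.40 and Ptov1 by 1.97. The low-level month 1 arrays are on slide 2 and the high-level ones on slides 1 and 3, so slide and level cannot be told apart in these values. Itga10 was not well above background on the low-level PSPI arrays, so its size is not a measured one.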

How the results depend on the processing

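The number of called genes was 83 and depended on the processing. It was 27 with the percentile over all probes (22 higher), 82 with quantile normalization (62 higher), 2 with normexp (both higher), 2 with the deposited table, 1 without a background filter, 314 (189 higher) with no arrays averaged, 156 (100 higher) with trended and robust eBayes, 377 (228 higher) with array weights, 3 (2 higher) with all 5 month 1 and 10 sham arrays, 231 (178 higher) without Sham 3, 4 and 10, and 1 without Sham 1 and 5. With slide as a random block it was 2910 (1390 higher), with a fitted correlation of -0.22. The PSPI arrays share 1 slide without sham, so that block cannot separate slide from surgery and its count is no measure of robustness to slide. The number of called genes was 0 with slide as a fixed block. As settings added after the data were seen, it was 0 with Sham 1 and 5 and Sham 3, 4 and 10 averaged. It was also 0 with PSPI samples 3 and 4 averaged too (1269 at an unadjusted p under 0.05). Leaving out 1 sample gave 1 to 89 called genes (1 to 63 higher). Of 1101 values of the 41 named called genes over the alternatives, 1100 kept their direction and 705 lost the call. Reversed values were Plekhb2 at -0.0095 (slide as a fixed block), Oas2 at 0.35 (all arrays) and Ctss at -0.086 (without Sham 1 and 5) and -0.12 (replicate block). Ctss ran from -0.012 (without PSPI sample 2) to 0.229 without 1 sample.

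With the replicate number as a block 0 genes were called (1974 at an unadjusted p under 0.05). The numbers did not pair the samples, since the deviations of same-numbered samples correlated at -0.18, -0.33 and -0.21. A block for close arrays could not be fitted.

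The 3 genes differing between Myh7 levels were compared under settings added after the data were seen. The count was 4 with quantile normalization, 2 with normexp, the deposited table, probes detected on all 9 arrays or trended eBayes, 1 without a filter, 11 with array weights, 0 with averaged sham sets, 0 with the slide block, and 0 to 105 without 1 sample.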
